A study of Mus musculus with 8 samples.

Results

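The integrated stress response and amino acid supply genes are 36 genes picked by symbol from the 45777 genes in the count files. All 36 were found, and all 36 passed the filter on low counts that left 17038 genes for testing. They comprise 7 transcription factors and cofactors, 5 feedback and effector genes, 7 serine and one-carbon enzymes, 6 other amino acid enzymes, 8 amino acid transporters and 3 genes for secreted hormones and a surface receptor.

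Bulk RNA-seq counts were available for 8 libraries of mouse tumour organoids, grown as 3-dimensional epithelial cultures and labelled as hepatocellular carcinoma arising in metabolic fatty liver disease. The resistant group held 2 libraries, 1 each of the lenvatinib-resistant cultures SNU-6624-TO-LEN and SNU-6625-TO-LEN, whose treatment label is control. The lenvatinib group held 2 libraries, SNU-6624-TO and SNU-6625-TO treated with lenvatinib, a multikinase inhibitor of VEGF, FGF and PDGF receptors. The parental group held 4 untreated control libraries, with SNU-6624-TO and SNU-6625-TO joined by SNU-6621-TO and SNU-6622-TO. All 8 carry the genotype label WT. Neither how much lenvatinib was given nor for how long is stated in the labels. Each resistant culture is 1 line, so resistance and other properties of that culture cannot be told apart. The libraries of a line are not described as coming from separate mice. Each group held 1 library per line, so the p-values reflect how far group differences disagreed between SNU-6624 and SNU-6625. Part or all of that variation may be technical. Multi-biotics treatment, which the design text mentions, was not analysed here.

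Total counts were 49.0 M to 61.0 M per library (M, mega), and levels are given as CPM, counts per M counts of the library. A count of 0 in a library allows a level of up to 3 counts, or 0.0492 to 0.0612 CPM, and this limit covers counting error only. Of 10 hepatocyte markers, 4 had 0 counts in all 8 libraries (Alb, Serpina1a, Cps1 and Fgb), while none of 8 biliary and progenitor markers did. The 10 hepatocyte markers summed to 0 to 0.376 CPM in resistant, 0.0354 to 0.0736 CPM in lenvatinib and 0.331 to 48.9 CPM in parental libraries, so defining hepatocyte transcripts were largely absent from these organoids. The biliary markers summed to 9522 to 12090 CPM in resistant, 2434 to 2926 CPM in lenvatinib and 6971 to 8139 CPM in parental libraries. Of the 8 markers of each other cell type, 4 fibroblast and stellate genes, 6 macrophage genes, 3 endothelial genes and 6 lymphocyte genes had 0 counts in all 8 libraries. Counts from ribosomal RNA genes were 0.0411% to 0.0416% in resistant, 0.0448% to 0.0533% in lenvatinib and 0.0942% to 0.1103% in parental libraries, and mitochondrially encoded counts were 5.07% to 6.08% in resistant, 5.84% to 6.19% in lenvatinib and 6.97% to 8.53% in parental libraries. The 5 general epithelium markers summed to 8569 to 13500 CPM in resistant, 3727 to 3821 CPM in lenvatinib and 4593 to 6850 CPM in parental libraries. Several of these shares and sums differed between the groups compared below. Their part in the results was not tested. In bulk samples, fewer cells of a type and less RNA per cell cannot be told apart.

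The integrated stress response begins when stress kinases phosphorylate the translation initiation factor eIF2. Bulk protein synthesis then slows, while the mRNA of the transcription factor ATF4 is translated more, so the Atf4 transcript is only a partial measure of the pathway. ATF4 pairs with C/EBP factors on composite DNA sites and switches on genes that import amino acids, make asparagine, serine, glycine and proline, and charge transfer RNAs, together with feedback genes that end the response. In liver and its tumours the pathway is known for its responses to amino acid shortage, endoplasmic reticulum stress and mitochondrial stress.

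The composite site is shown here because ATF4 is known to act through it. RefSeq promoter windows of 300 bases (GRCm38.p6, 250 bases before to 50 after each start) were held for 31 of the 36 genes and were searched for TGATGNAA on both strands. The motif was present for 9 of 31 genes (29%), against 4.51% of the 27025 genes with windows. The stricter form TGATGCAA, all of whose matches also match the looser form, was present for 7 of 31 (22.6%), against 1.03% of all genes. The full ER stress element, searched on both strands, was in 0 of 31 gene windows and in 0.137% of all. A match describes letters in a window and does not show binding. The stretches below run 5′ to 3′ on the gene's strand, with the match in capitals. They come from chr2:119351024-119351081 (plus strand, Chac1), chr6:7693210-7693257 (minus, Asns), chr11:120643819-120643876 (minus, Pycr1), chr11:20332710-20332742 (minus, Slc1a4) and chr1:191183411-191183468 (minus, Atf3). The first 4 genes were higher in both lenvatinib libraries than in both parental libraries, and Atf3 was not. Of the 9 genes called higher with lenvatinib below, Chac1, Asns and Pycr1 held a match, Ddit3, Atf5, Phgdh, Aldh18a1 and Gpt2 had a window without one and Slc7a5 had no window. Atf3, Slc1a4, Trib3, Fgf21, Nupr1 and Vldlr held a match and were not called with lenvatinib by edgeR. Of these, Slc1a4 and Trib3 were called lower in resistant than in lenvatinib libraries. The rest were called in no comparison by edgeR.
Chac1: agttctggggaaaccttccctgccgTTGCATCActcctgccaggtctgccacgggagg
Asns: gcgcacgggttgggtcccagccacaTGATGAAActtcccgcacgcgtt
Pycr1: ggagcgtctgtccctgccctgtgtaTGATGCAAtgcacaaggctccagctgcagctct
Slc1a4: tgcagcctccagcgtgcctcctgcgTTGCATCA
Atf3: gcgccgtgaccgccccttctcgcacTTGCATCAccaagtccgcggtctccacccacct

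**Figure D1:**
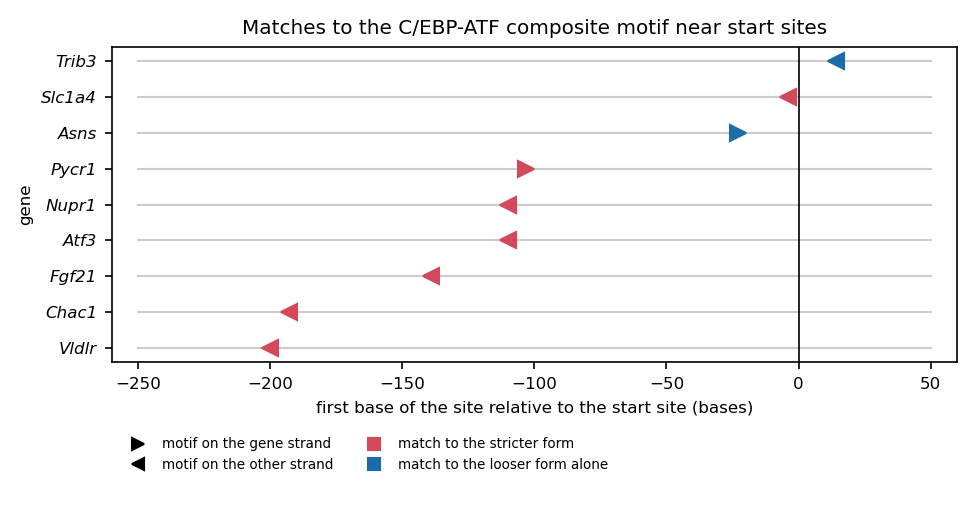
Position of each match to the composite motif in the promoter windows of 9 genes, as the first base of the site in bases from the start site (0), with arrowheads for the strand and colour for the stricter or looser form. Matches lie between 200 bases before and 14 bases after the start, and 7 of the 9 hold the stricter form.

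The first match began 193 bases before the start of Chac1, and those of Pycr1, Asns and Slc1a4 began 103, 23 and 4 bases before theirs. In Atf3 the match began 110 bases before the start. Fgf21, Nupr1 and Vldlr also held matches upstream, and that of Trib3 began 14 bases into the transcript.

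Lenvatinib-treated organoids had more transcript of 9 of the 36 genes than parental organoids of the same lines by edgeR, with none called lower. These 9 were Ddit3, Atf5, Chac1, Phgdh, Asns, Pycr1, Aldh18a1, Gpt2 and Slc7a5. By edgeR's quasi-likelihood test with line as a term (adjusted p under 0.05), 5.78% of all tested genes were called, 1.70% higher and 4.08% lower. Scaled by library size alone, the split over all genes was 427 higher and 556 lower, against 289 higher and 696 lower. The median log2 fold change was 0.91 over the 36 genes and -0.01 over all 17038. In 31 of 36 genes the lenvatinib and parental CPM values of these lines did not overlap, where 72.9% of all tested genes did not. The calls depended on which libraries were in the fit. Every call, among the 36 genes and over all tested genes, was lost without lenvatinib SNU-6624, lenvatinib SNU-6625, parental SNU-6624 or parental SNU-6625. With either resistant library left out, more genes were called, both among the 36 and over all genes. In each such fit a lone library stood for its group. The median log2 fold change over the 36 genes was 0.81 to 1.08 across these fits. DESeq2 also called Atf4, Cebpb, Ddit4, Gdf15, Mthfd2, Psph, Shmt2, Slc1a4, Slc3a2, Slc6a9, Slc7a1 and Trib3 higher and Slc1a5 lower, and limma-voom also called Ddit4, Mthfd2, Shmt2, Slc1a4 and Trib3 higher. Below, called and not called refer to edgeR's test on the 6 libraries.

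Resistant organoids had less transcript of 8 of the 36 genes than lenvatinib-treated organoids by edgeR, with none called higher. These were Aldh1l2, Gpt2, Ddit3, Slc7a5, Pycr1, Aldh18a1, Slc1a4 and Trib3. Over all tested genes 6.23% were called, 2.08% lower and 4.14% higher. The median log2 fold change was -0.69 over the 36 genes and 0.02 over all. In 28 of 36 genes the resistant and lenvatinib CPM values did not overlap, where 58.7% of all tested genes did not. Scaled by library size alone, the median over all genes shifted to -0.14 and that over the 36 genes was -0.86, with 12 of them called lower and 1 higher; over all genes 663 were then called lower and 596 higher, against 355 lower and 706 higher. None of the 36 genes stayed called without lenvatinib SNU-6624 or SNU-6625. Without parental SNU-6624 or SNU-6625 only Aldh1l2 did, and the calls over all genes fell too. With either resistant library left out, more genes were called, both among the 36 and over all genes. In each such fit a lone library stood for its group. The median log2 fold change over the 36 genes was -0.93 to -0.66 across these fits. DESeq2 also called Asns, Atf5, Chac1, Mthfd2, Phgdh, Shmt2, Slc38a2, Slc3a2 and Slc6a9 lower and Atf3 higher, and limma-voom also called Asns and Phgdh lower and Atf3 higher.

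Between resistant and parental organoids, 0 of 36 genes were called by edgeR, which called 0 of 17038 genes in all (0%). Before adjustment 9 of 36 had a p under 0.05, against 15.9% of all tested genes. DESeq2 called 8 of the 36, with Atf3, Chac1, Ddit3, Gdf15, Phgdh, Ppp1r15a and Sesn2 higher and Aldh1l2 lower, and limma-voom called 0. The median log2 fold change was 0.25 over the 36 genes and -0.01 over all. In 17 of 36 genes the resistant and parental CPM values did not overlap, where 46.8% of all tested genes did not. This share is to be kept in mind where single genes are described below as not overlapping. Each of the 3 comparisons shares libraries with the other 2, so their values are given side by side and not set against one another as independent results.

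**Figure D2:**
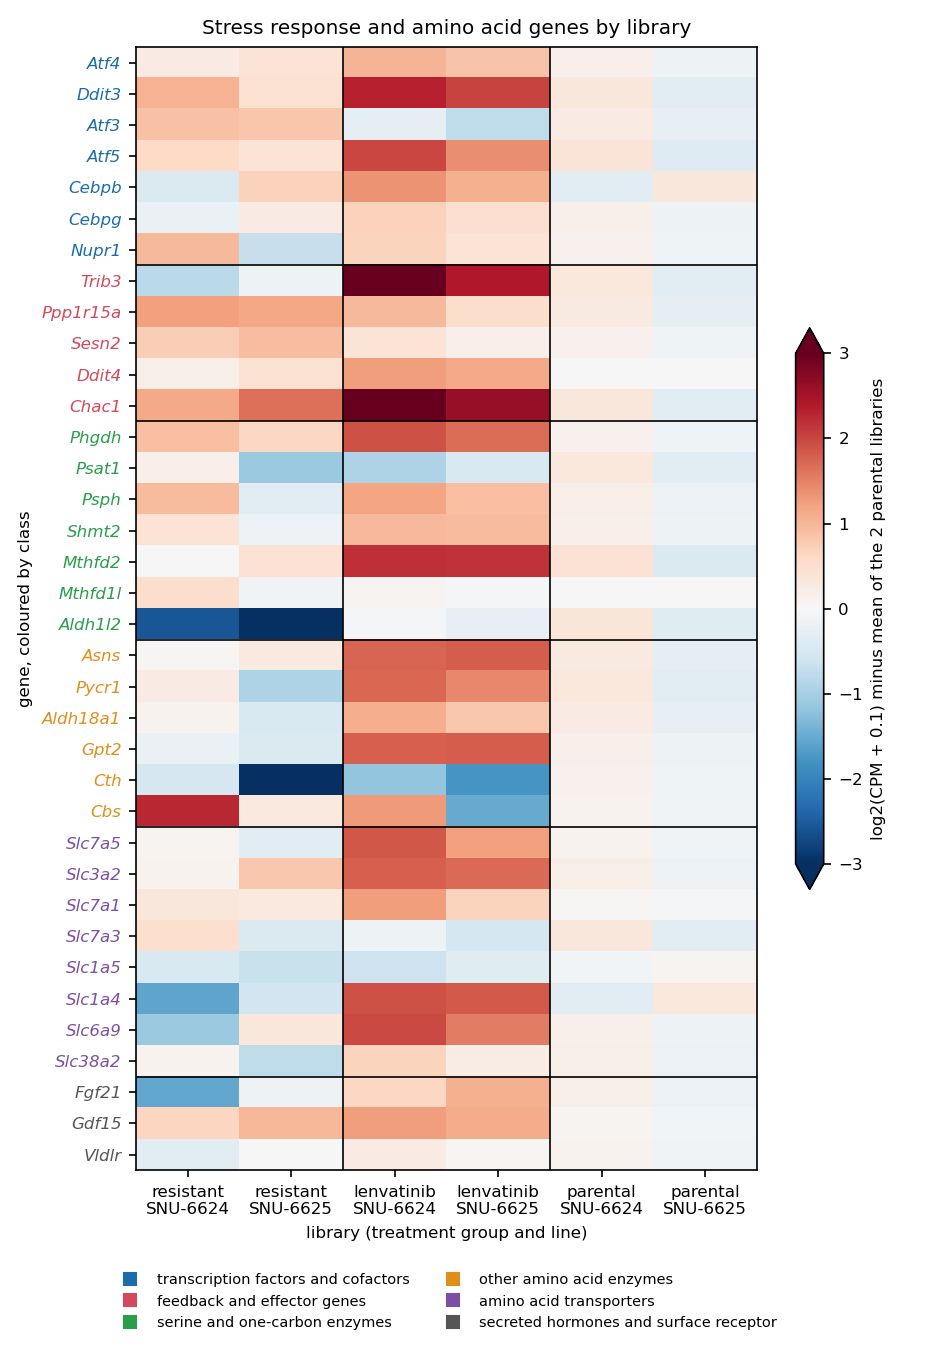
Each row is a gene, coloured by class, and each column a library, with resistant, lenvatinib and parental libraries of SNU-6624 and SNU-6625 from left to right. Colour gives log2(CPM + 0.1) minus the mean of the 2 parental libraries, and scale ends are at -3 and 3. Most rows are red in both lenvatinib columns, while Atf3, Psat1, Cth, Slc1a5 and Slc7a3 are blue there and Aldh1l2 is dark blue in both resistant columns.

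Values below are in the order SNU-6624 and SNU-6625 for each group. Among the transcription factors, Atf4 itself had 371 and 416 CPM in resistant, 634 and 569 CPM in lenvatinib and 346 and 281 CPM in parental libraries. Both lenvatinib values lay above all others, and the change against parental on the log2 scale was 0.86 (SE 0.25, edgeR adjusted p = 0.108, not called).

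Ddit3 encodes CHOP, the factor that turns a prolonged stress response towards cell death. It had 67.9 and 45.0 CPM in resistant, 165 and 133 CPM in lenvatinib and 41.8 and 25.7 CPM in parental libraries. Within these 2 lines no 2 of the groups overlapped, but untreated parental SNU-6621 had 65.1 CPM, between the 2 resistant values. Ddit3 rose with lenvatinib by 2.09 (log2 fold change, SE 0.17, edgeR adjusted p = 0.0305) and was lower in resistant than in lenvatinib libraries, at -1.25 (SE 0.16, edgeR adjusted p = 0.0368). On the opposite strand Mars shares 68 bases, 7.6% of Ddit3 exon bases. Mars had 76.6 and 72.0 CPM in resistant, 126 and 134 CPM in lenvatinib and 68.2 and 64.0 CPM in parental libraries, and its share in the Ddit3 counts was not tested.

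Atf5, a target and relative of ATF4 known for the mitochondrial stress response, had 28.4 and 25.1 CPM in resistant, 75.0 and 49.6 CPM in lenvatinib and 24.3 and 14.4 CPM in parental libraries. It rose with lenvatinib by 1.62 (SE 0.25, edgeR adjusted p = 0.0452), with 4.1% of its exon bases shared with Nup62, which had 61.6 and 51.2 CPM in resistant, 108 and 99.9 CPM in lenvatinib and 61.8 and 51.6 CPM in parental libraries. Without the replicate block (line) this call was lost.

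Atf3, a stress-induced repressor and activator that often accompanies ATF4, had the other pattern. Its levels were 969.6 and 934 CPM in resistant, 433 and 312 CPM in lenvatinib and 625 and 441 CPM in parental libraries. Resistant values were the highest of the 3 groups and lenvatinib values the lowest. None of its 3 log2 fold changes was called by edgeR: 1.55 for resistant against lenvatinib (SE 0.28, edgeR adjusted p = 0.0516), 0.96 for resistant against parental and -0.59 for lenvatinib against parental. Resistant against lenvatinib was called higher by DESeq2, by limma-voom and by edgeR with library size alone, with the 1 CPM filter or with abundant genes left out, and resistant against parental was called higher by DESeq2.

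The C/EBP partner genes and the stress cofactor Nupr1 were not called in any comparison by edgeR, while DESeq2 called Cebpb higher with lenvatinib. Cebpb had 21.3 and 46.3 CPM in resistant, 72.5 and 60.3 CPM in lenvatinib and 22.5 and 36.4 CPM in parental libraries. Cebpg had 52.5 and 72.2, 98.3 and 85.5, and 67.6 and 54.2 CPM in the same order of groups. Nupr1 had 707 and 223, 568 and 474, and 392 and 329 CPM, so that its highest and lowest values were both in resistant libraries.

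The feedback and effector genes act downstream of these factors. Chac1 encodes an enzyme that degrades glutathione, and it had 26.9 and 38.4 CPM in resistant, 102 and 75.5 CPM in lenvatinib and 15.4 and 9.61 CPM in parental libraries. The 3 groups did not overlap. Chac1 rose with lenvatinib by 2.75 (SE 0.41, edgeR adjusted p = 0.0437), the largest log2 fold change of the 36 genes in that comparison.

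Trib3, a pseudokinase that restrains ATF4, had 19.5 and 30.9 CPM in resistant, 279 and 180 CPM in lenvatinib and 42.3 and 27.7 CPM in parental libraries. Lenvatinib values stood far above the other 4, which overlapped. Lenvatinib against parental gave 2.64 on the log2 scale (SE 0.46), which was not called (edgeR adjusted p = 0.0522). Trib3 was lower in resistant than in lenvatinib libraries by the same test, at -2.96 (SE 0.48, edgeR adjusted p = 0.0456).

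Ppp1r15a, Sesn2 and Ddit4 were not called in any comparison by edgeR, while DESeq2 called Ppp1r15a and Sesn2 higher in resistant than in parental libraries and Ddit4 higher with lenvatinib. Ppp1r15a encodes GADD34, the subunit that directs dephosphorylation of eIF2, and had 416 and 397 CPM in resistant, 349 and 256 CPM in lenvatinib and 215 and 149 CPM in parental libraries. Sesn2, a leucine sensor that restrains mTORC1, had 63.0 and 71.7, 50.1 and 41.8, and 41.4 and 34.3 CPM in the same order. For both genes the resistant libraries were the highest within SNU-6624 and SNU-6625. Untreated parental SNU-6621 had more Ppp1r15a than either resistant library, at 463 CPM. Ddit4 (REDD1), another mTORC1 inhibitor, had 111 and 136, 237 and 219, and 99.1 and 98.3 CPM, highest in lenvatinib libraries.

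**Figure D3:**
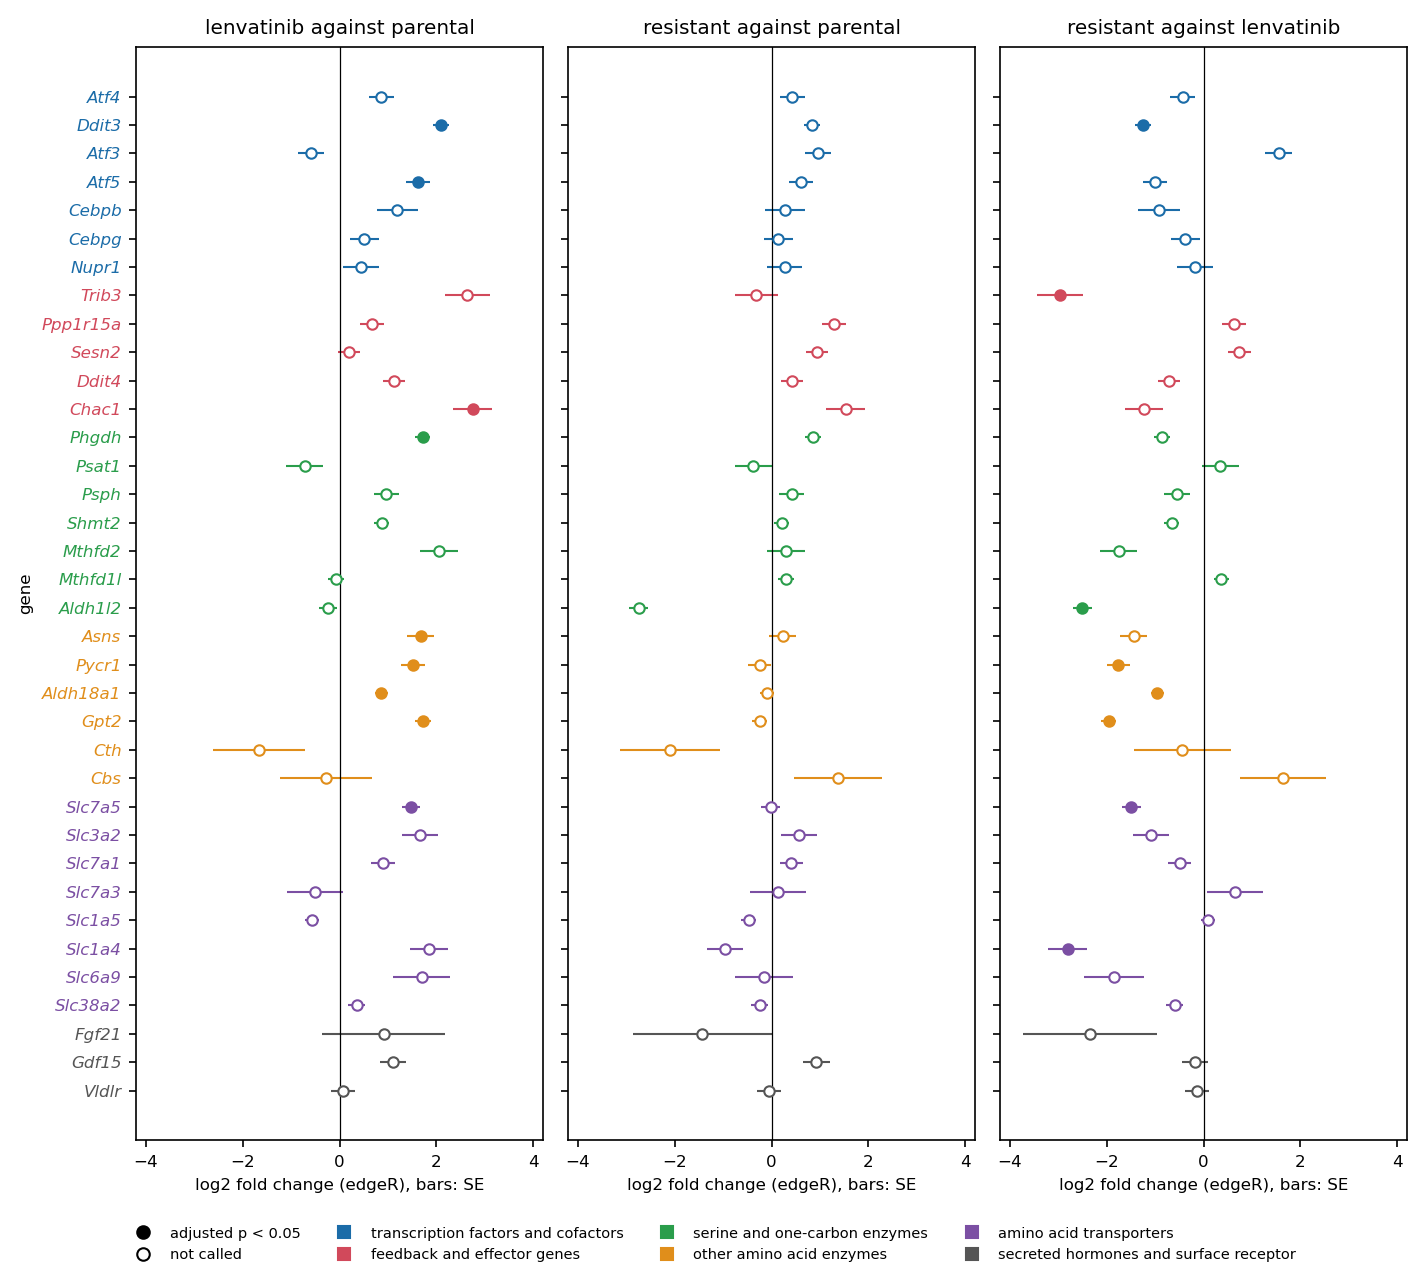
Log2 fold change (points) with its standard error (bars) for each of the 36 genes in the 3 comparisons, from edgeR on 6 libraries. Filled points passed an adjusted p of 0.05: 9 genes are filled for lenvatinib against parental, 0 for resistant against parental and 8 for resistant against lenvatinib.

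Serine synthesis runs through PHGDH, PSAT1 and PSPH, and the 3 genes are given in that order. Phgdh, for the entry step, had 142 and 117 CPM in resistant, 283 and 244 CPM in lenvatinib and 82.9 and 69.1 CPM in parental libraries. No 2 groups overlapped, and Phgdh rose with lenvatinib by 1.71 (SE 0.16, edgeR adjusted p = 0.0333). Psat1, for the middle step, had 113 and 47.1 CPM in resistant, 54.0 and 74.7 CPM in lenvatinib and 128 and 82.1 CPM in parental libraries. Both lenvatinib values of Psat1 lay below both parental values, and its log2 fold change was -0.72 (SE 0.38, edgeR adjusted p = 0.265, not called). Psph, for the last step, had 22.0 and 9.14, 26.1 and 21.4, and 12.9 and 10.1 CPM in resistant, lenvatinib and parental libraries and was not called. Of its exon bases 26.1% are shared with Cct6a on the opposite strand, a gene with 7154 to 13300 counts in these libraries, so the Psph level is uncertain.

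The mitochondrial folate enzymes draw on serine for one-carbon units. Mthfd2 had 36.1 and 48.2 CPM in resistant, 165 and 162 CPM in lenvatinib and 48.6 and 26.6 CPM in parental libraries, and lenvatinib against parental gave 2.05 (SE 0.39, edgeR adjusted p = 0.0586, not called). Shmt2, which splits serine into glycine and a one-carbon unit, had 92.9 and 62.3, 136 and 134, and 78.4 and 62.5 CPM, highest in both lenvatinib libraries and not called. Mthfd1l, which releases formate, had 62.7 and 39.9, 45.6 and 41.8, and 43.6 and 42.7 CPM, with overlapping lenvatinib and parental values.

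Aldh1l2, which oxidises one-carbon units to carbon dioxide in mitochondria, was the gene of this class that stood apart in resistant organoids. It had 10.3 and 7.24 CPM in resistant, 58.6 and 51.7 CPM in lenvatinib and 78.3 and 48.0 CPM in parental libraries. Both resistant values lay below all others, while lenvatinib and parental values overlapped. Aldh1l2 was lower in resistant than in lenvatinib libraries, at -2.50 (SE 0.19, edgeR adjusted p = 0.0216), and this call was lost only when a lenvatinib library was left out. Against parental libraries it had -2.75 (SE 0.19, edgeR adjusted p = 0.247, unadjusted p = 6.3e-05), the smallest p of the 36 genes and not called by edgeR. D10Wsu102e on the opposite strand shares 17.3% of its exon bases and had 53.5 and 26.8, 55.0 and 37.8, and 49.3 and 44.0 CPM in resistant, lenvatinib and parental libraries.

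**Figure D4:**
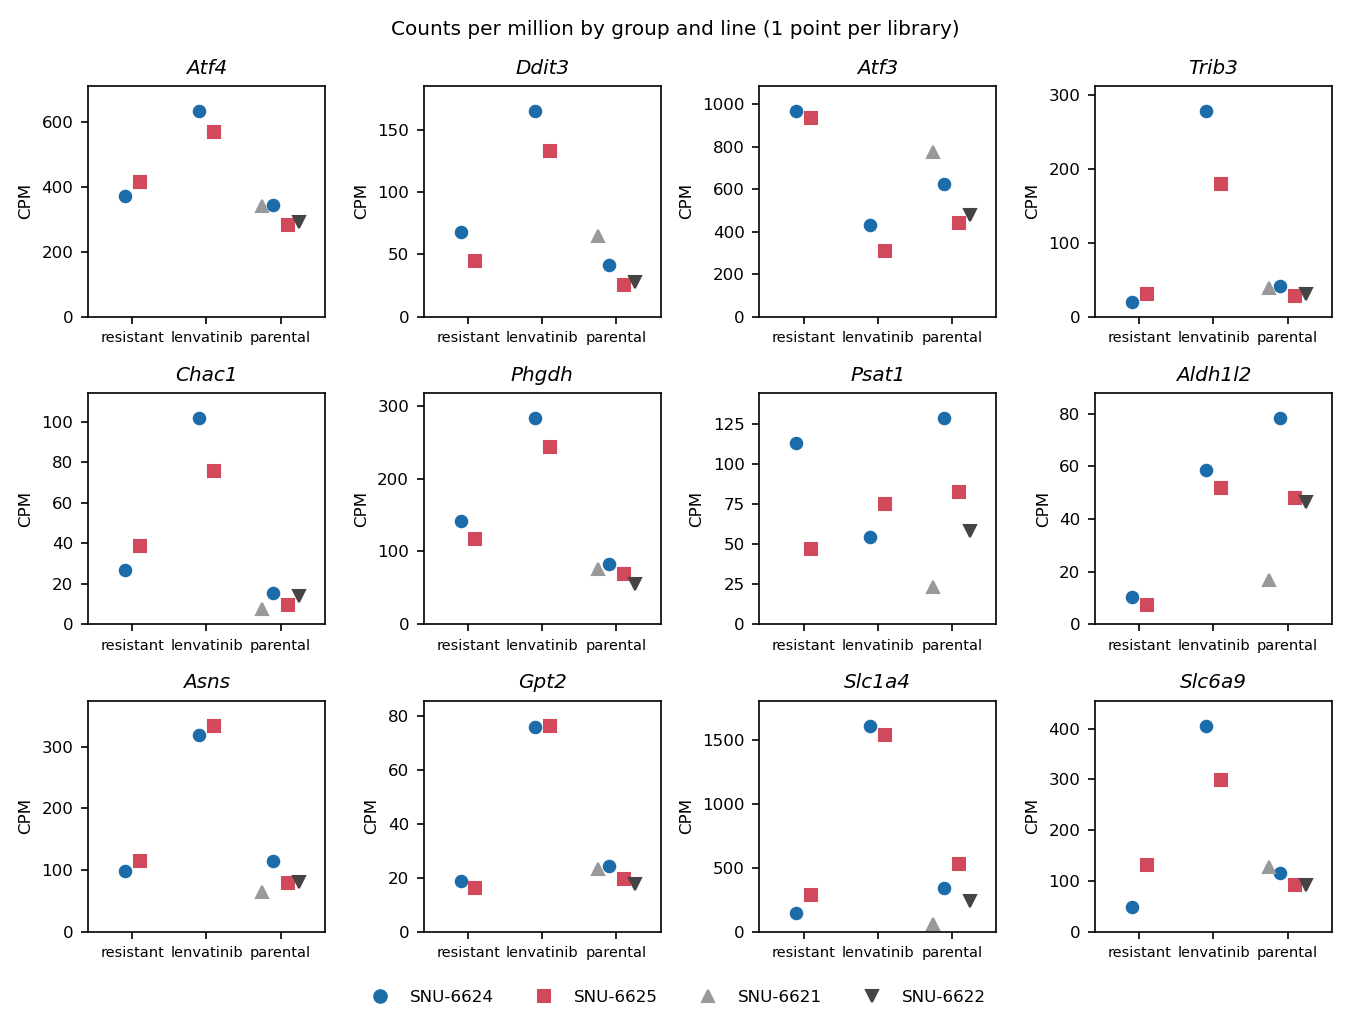
CPM of 12 genes in each library (points), with resistant, lenvatinib and parental groups from left to right, symbols for the line and axes that start at 0. Lenvatinib points are the highest for Atf4, Ddit3, Trib3, Chac1, Phgdh, Asns, Gpt2, Slc1a4 and Slc6a9; resistant points are the highest for Atf3 and the lowest for Aldh1l2.

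Among the other amino acid enzymes, 4 of 6 rose with lenvatinib. Asns, for asparagine synthetase, had 97.6 and 114 CPM in resistant, 319.5 and 335 CPM in lenvatinib and 115 and 79.3 CPM in parental libraries, and rose by 1.68 with lenvatinib (SE 0.28, edgeR adjusted p = 0.0494). Gpt2, the mitochondrial alanine aminotransferase gene, had 18.9 and 16.0 CPM in resistant, 75.9 and 76.4 CPM in lenvatinib and 24.3 and 19.5 CPM in parental libraries. For Gpt2 the 2 lenvatinib values were nearly equal and more than every other value, while both resistant values lay below both parental values. It rose with lenvatinib by 1.72 (SE 0.16, edgeR adjusted p = 0.0329) and was lower in resistant than in lenvatinib libraries at -1.96 (SE 0.16, edgeR adjusted p = 0.0231).

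The proline synthesis genes rose too. Pycr1, for the last step, had 11.0 and 4.85 CPM in resistant, 30.7 and 25.3 CPM in lenvatinib and 11.6 and 7.43 CPM in parental libraries. Its log2 fold change was 1.51 for lenvatinib against parental (SE 0.24, edgeR adjusted p = 0.0467) and -1.76 for resistant against lenvatinib (SE 0.25, edgeR adjusted p = 0.0398). Aldh18a1, for the first step, had 64.3 and 43.2 CPM in resistant, 127 and 104 CPM in lenvatinib and 70.8 and 50.4 CPM in parental libraries. The values were 0.86 (SE 0.14, edgeR adjusted p = 0.0463) and -0.96 (SE 0.14, edgeR adjusted p = 0.0402) in the same comparisons. Without the replicate block, the calls of both genes were lost in both comparisons.

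The transsulfuration genes Cth and Cbs make cysteine from homocysteine, and neither was called. Cth had 334 and 23 counts in resistant, 229 and 144 in lenvatinib and 621 and 416 in parental libraries, so every resistant and lenvatinib count lay below both parental counts. In CPM these were 6.61 and 0.377, 4.05 and 2.65, and 10.3 and 8.49. Cbs had low counts in both lines, with 129 and 35 counts in resistant, 70 and 5 in lenvatinib and 30 and 20 in parental libraries.

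The transporters include both chains of the leucine exchanger. Slc7a5, its light chain LAT1, had 54.3 and 41.1 CPM in resistant, 186 and 120 CPM in lenvatinib and 54.6 and 47.6 CPM in parental libraries. It rose with lenvatinib by 1.48 (SE 0.19, edgeR adjusted p = 0.0408) and was lower in resistant than in lenvatinib libraries at -1.50 (SE 0.19, edgeR adjusted p = 0.0372). Resistant and parental values overlapped. Slc3a2, its heavy chain, had 247 and 398, 793 and 745, and 257 and 203 CPM in resistant, lenvatinib and parental libraries, and was not called (1.66 for lenvatinib against parental, SE 0.37, edgeR adjusted p = 0.0723).

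Slc1a4, an exchanger of alanine, serine and cysteine, had 142 and 284 CPM in resistant, 1612 and 1539 CPM in lenvatinib and 344 and 529.8 CPM in parental libraries. Each line kept the same order, with resistant below parental below lenvatinib. The drop of resistant below lenvatinib libraries was called, at -2.81 (SE 0.41, edgeR adjusted p = 0.0404), and the difference of lenvatinib from parental libraries was not, at 1.84 (SE 0.39, edgeR adjusted p = 0.0665). Slc1a5, the related glutamine transporter, had 103 and 88.8 CPM in resistant, 92.4 and 110.1 CPM in lenvatinib and 133 and 151 CPM in parental libraries. All 4 resistant and lenvatinib values lay below both parental values, and its value of -0.57 with lenvatinib (log2) was not called (SE 0.15, edgeR adjusted p = 0.0879).

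The remaining transporters were not called by edgeR, while DESeq2 called Slc6a9 and Slc7a1 higher with lenvatinib and Slc6a9 and Slc38a2 lower in resistant than in lenvatinib libraries. Slc6a9, the glycine transporter GLYT1, had 47.9 and 131 CPM in resistant, 406 and 299 CPM in lenvatinib and 115 and 92.4 CPM in parental libraries. Slc7a1, for cationic amino acids, had 143 and 139, 271 and 182, and 117 and 110.4 CPM in the same order. Slc38a2, for small neutral amino acids, had 252 and 139.7, 373 and 273, and 267 and 208 CPM. Each of these 3 was highest in lenvatinib libraries within each line. Slc7a3, a further cationic amino acid transporter, had 13 to 31 counts in the 6 libraries of these lines.

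Of the secreted hormones, Gdf15, a stress hormone that reduces appetite, had 441 and 557 CPM in resistant, 664 and 608 CPM in lenvatinib and 296 and 265 CPM in parental libraries. All resistant and lenvatinib values exceeded both parental values. Its log2 fold changes against parental libraries were 1.10 for lenvatinib (SE 0.27, edgeR adjusted p = 0.0821) and 0.93 for resistant (SE 0.27, edgeR adjusted p = 0.269), neither called. Fgf21, the liver hormone of amino acid shortage, had 0 and 10 counts in resistant, 20 and 28 in lenvatinib and 14 and 8 in parental libraries. The lipoprotein receptor gene Vldlr had 115 and 140.3, 169 and 148, and 154 and 131 CPM.

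By class, the log2 fold changes of resistant against parental organoids are a description without calls. All 7 transcription factors and cofactors had log2 fold changes above 0 (median 0.43), and 4 of 5 feedback and effector genes did (median 0.94). Within lines, Atf4, Ddit3, Atf3 and Atf5 were higher in both. Cebpb (log2 ratio -0.10 in SNU-6624 and 0.55 in SNU-6625), Cebpg (-0.39 and 0.61) and Nupr1 (0.83 and -0.36) moved in opposite directions. Of the serine and one-carbon enzymes 5 of 7 were above 0 (median 0.30), of the other amino acid enzymes 2 of 6 (median -0.17) of the transporters 3 of 8 (median -0.09) and of the hormones and receptor 1 of 3 (median -0.06). For lenvatinib against parental libraries, the medians were 0.86, 1.13, 0.87, 1.19, 1.19 and 0.91 in the same order of classes. The 5 smallest p-values for resistant against parental were those of Aldh1l2, Phgdh (0.85, SE 0.16), Ddit3 (0.84, SE 0.16), Ppp1r15a (1.29, SE 0.25) and Sesn2 (0.94, SE 0.23). None was called, with an edgeR adjusted p = 0.247 for the first 4 and 0.248 for Sesn2. Without resistant SNU-6624, edgeR called 17 of 36 genes, 14 higher and 3 lower, and 5819 of 17993 genes in all. Without resistant SNU-6625 it called 6 of 36, 3 higher and 3 lower, and 580 of 17785 genes in all.

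Within each line the direction of change was counted for both comparisons with parental libraries. With lenvatinib, 28 of 36 genes were higher in both lines, 6 lower in both and 2 moved in opposite directions. For resistant against parental the counts were 16, 10 and 10. Over all tested genes 41.4% were higher and 41.9% lower in both lines with lenvatinib, against 30.3% and 32.0% in resistance. The difference between lines was not tested.

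In resistant SNU-6624, 17 of 36 genes were higher than in its parental library, with a median log2 ratio of -0.06, and in SNU-6625 25 of 36 were, with a median of 0.44. Over all tested genes 49.6% were higher in SNU-6624 and 48.2% in SNU-6625. Scaled by library size alone, the count in SNU-6625 was 21, where 38.9% of all tested genes were higher. The median over all genes in that line then shifted to -0.23. The log2 ratio of Slc6a9 was -1.29 in the SNU-6624 pair and 0.70 in the SNU-6625 pair. Slc3a2 had -0.08 and 1.17, Mthfd2 -0.45 and 1.06, Trib3 -1.14 and 0.36 and Asns -0.25 and 0.73 in the same order. Chac1 (0.78 and 2.19), Ppp1r15a (0.93 and 1.62), Phgdh (0.75 and 0.96) and Ddit3 (0.68 and 1.01) were higher in both lines. Aldh1l2 (-2.95 and -2.52) and Slc1a4 (-1.30 and -0.70) were lower in both. Cth had -0.66 in SNU-6624 and -4.18 in SNU-6625, where its resistant library held 23 counts.

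**Figure D5:**
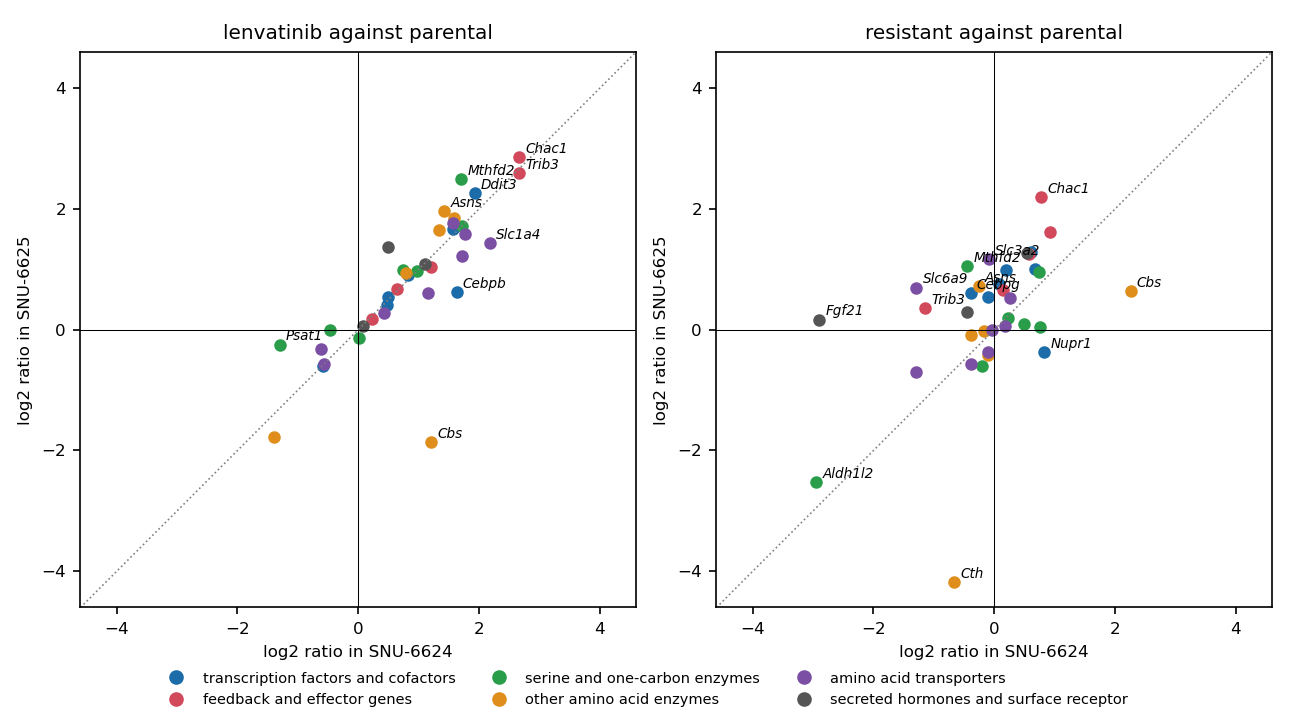
Log2 ratio within SNU-6624 (x axis) and within SNU-6625 (y axis) for the 36 genes, coloured by class, for lenvatinib against parental (left) and resistant against parental (right). The dotted line marks equal ratios. With lenvatinib 34 of 36 points lie in the quadrants of shared direction, and in resistance 26 of 36 do.

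Across the 4 untreated parental lines, the median ratio of the highest to the lowest line was 1.76, and the spread over all genes was not measured. Of 35 genes with counts in every line, the highest line was less than 2-fold above the lowest for 20, between 2-fold and 5-fold for 12 and at least 5-fold for 3. SNU-6624 was the highest line for 19 of 36 genes and SNU-6621 for 13, while SNU-6621 was the lowest for 14 and SNU-6625 for 12. Psat1 had 23.0 CPM in SNU-6621, 58.0 in SNU-6622, 128 in SNU-6624 and 82.1 in SNU-6625. Slc1a4 had 61.9, 236, 344 and 529.8 CPM in the same order, and Aldh1l2 had 16.9, 46.6, 78.3 and 48.0 CPM. SNU-6621 was the lowest line for each of these 3. By contrast it was the highest for Ddit3, at 65.1 CPM against 25.7 to 41.8 CPM in the others, for Atf5, at 71.9 against 14.4 to 24.3 CPM, and for Ppp1r15a, at 463 against 149 to 215 CPM. With 1 library per line these differences were not tested.

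Other genes of the pathway were read from lists set by role. Over all tested genes 1.70% were called higher and 4.08% lower with lenvatinib, at a median log2 fold change of -0.01. For resistant against lenvatinib these shares were 4.14% and 2.08%, at a median of 0.02. Cytosolic aminoacyl-tRNA synthetases, which charge transfer RNAs with amino acids, had 7 of 20 called higher with lenvatinib, 0 lower and a median log2 fold change of 0.93. Yars had 52.5 and 45.8 CPM in resistant, 161 and 140 CPM in lenvatinib and 67.3 and 51.2 CPM in parental libraries, a rise of 1.27 with lenvatinib (SE 0.17, edgeR adjusted p = 0.0411). It was the one synthetase called lower in resistant than in lenvatinib libraries, at -1.44 (SE 0.17, edgeR adjusted p = 0.0338). Rars (1.20, SE 0.15), Iars (1.05, SE 0.16) and Tars (0.94, SE 0.14) were among the other rises.

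Of 11 other ATF4 targets, 2 were called higher with lenvatinib and 0 lower. These were the translation inhibitor gene Eif4ebp1, at 1.71 (log2 fold change, SE 0.29, edgeR adjusted p = 0.0497), and the repressor gene Jdp2, at 1.78 (SE 0.25, edgeR adjusted p = 0.0422). Slc7a11, the cystine transporter, had 102 and 397 CPM in resistant, 530.5 and 528 CPM in lenvatinib and 161 and 171 CPM in parental libraries and was not called. The death receptor gene Tnfrsf10b was higher in resistant than in lenvatinib libraries, at 1.20 (SE 0.17, edgeR adjusted p = 0.0404), with 239 and 238 CPM in resistant against 120 and 114 CPM in lenvatinib libraries. Vegfa, for the angiogenic ligand of a lenvatinib target, was lower there, at -1.22 (edgeR adjusted p = 0.0451).

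Calls by edgeR were few in the upstream and parallel branches, as they were over all tested genes. The shares over all tested genes were 5.78% for lenvatinib against parental, 0% for resistant against parental and 6.23% for resistant against lenvatinib. DESeq2 called 3669, 1104 and 3569 of 17038 genes in the same order, and limma-voom called 1697, 0 and 1587. For the eIF2 kinases, eIF2, eIF2B and phosphatase, edgeR called 0 of 14 in each comparison. With lenvatinib 6 had an unadjusted p under 0.05, where 31.8% of all tested genes did, and DESeq2 called 4 and limma-voom 1; for resistant against parental these counts were 1, 0 and 0, and for resistant against lenvatinib 3, 1 and 0, where 15.9% and 30.4% of all tested genes had such a p. The kinase gene Eif2ak3 (PERK) had 41.7 and 54.8 CPM in resistant, 49.8 and 47.0 CPM in lenvatinib and 31.4 and 26.9 CPM in parental libraries. For the ER chaperones and ATF6 or XBP1 targets, edgeR called 0 of 20 in each comparison. With lenvatinib against parental 10 had an unadjusted p under 0.05 (31.8% of all tested genes), 7 were called by DESeq2 and 3 by limma-voom. For resistant against parental these counts were 7, 3 and 0, where 15.9% of all tested genes had such a p. For resistant against lenvatinib they were also 7, 3 and 0, where 30.4% did. The ER chaperone gene Hspa5 (BiP) had 1247 and 1364, 1394 and 1222, and 762 and 753 CPM in resistant, lenvatinib and parental libraries, above parental in both other groups. The mitochondrial stress list had 1 of 10 called higher with lenvatinib, the chaperonin gene Hspe1 (1.37, SE 0.18, edgeR adjusted p = 0.0415).

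Of the other folate and one-carbon genes, Amt, of the glycine cleavage system, was lower in resistant than in lenvatinib libraries, at -2.20 (SE 0.32, edgeR adjusted p = 0.0406). Of 13 other tested transporters, 1 was called higher and 2 lower with lenvatinib. The lysosomal arginine sensor gene Slc38a9 rose by 1.37 (SE 0.16, edgeR adjusted p = 0.0371). The taurine transporter gene Slc6a6 fell, at -1.68 (SE 0.18, edgeR adjusted p = 0.0361), as did Slc36a4, at -1.29 (SE 0.18, edgeR adjusted p = 0.0418). In resistant against lenvatinib libraries the same 3 genes were called the other way, and Slc43a2, a neutral amino acid transporter, was higher at 2.37 (SE 0.31, edgeR adjusted p = 0.0368). For glutamine, glutamate and proline enzymes edgeR called 0 of 11 in each comparison, with 3 at an unadjusted p under 0.05 (31.8% of all tested genes), 1 called by DESeq2 and 0 by limma-voom for lenvatinib against parental.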

How the data were processed

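The authors deposited 1 file of whole-number read counts per gene for each library. Per the submitters' processing notes, StringTie 2.1.3b, HISAT2 2.1.0, Bowtie2 2.3.4.1, Trimmomatic 0.38 and FastQC 0.11.7 were used, on mm10. Libraries were made with a stranded mRNA kit, per the labels' protocols; whether counting used strand is not given in the sources used here. Exons shared with a gene on the opposite strand (GENCODE M21) therefore leave a count uncertain, as for 7 of the 36 genes with a partner in the files.

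Counts of the 6 libraries of SNU-6624 and SNU-6625 were fitted with edgeR 4.0.16 (R 4.3.3) using group and line as terms, TMM scaling, its default low-count filter and the quasi-likelihood test, with Benjamini-Hochberg adjustment over 17038 genes and calls under 0.05. SE was taken as the absolute log2 fold change over the root of the F statistic. Line is the replicate block, as both lines enter each group; deviations of same-line libraries correlated across genes at 0.504 (lenvatinib and parental), 0.29 (lenvatinib and resistant) and 0.288 (parental and resistant). The fit had 2 residual degrees of freedom and its common biological variation was 0.3365. CPM uses library totals; within-line log2 ratios use TMM-scaled CPM with a prior count of 2. The fit was tested on simulated data. Alternatives were other scalings, filters, library sets, DESeq2 1.42.0, limma-voom 3.58.1 and each library left out.

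The genes, classes and lists were chosen with earlier results of these data known. Genes called in a comparison are named with full statistics, with the 5 smallest p-values where under 3 were called, genes moving 2-fold or more in opposite directions between lines, genes with 1 parental line far from the rest, and up to 4 called genes per pathway list. Statistics of further genes that were not called, such as Atf4, Slc7a11, Eif2ak3 and Hspa5, were added after their values were seen. A withheld item is not reported here.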

Additional observations from a re-analysis of the deposited data

Results flagged for a closer look

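In 3 of 36 genes, 1 parental line stood far from the other 3, by the gap to its nearest neighbour as a share of the whole range; chance flags about 1 in 20 such groups of 4. All 3 were highest in SNU-6621. Cbs, the first transsulfuration enzyme gene, had 25.9 CPM there, against 0.325 to 0.497 CPM in the other 3 lines (ratio 0.993, 1357 counts against 19 to 30). Vldlr had 357 CPM in SNU-6621 and 131 to 154 CPM in the others (ratio 0.899). Cebpg had 134 CPM in SNU-6621 and 54.2 to 67.6 CPM in the others (ratio 0.8305), and was not marked with TMM-scaled CPM.

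Cbs also moved 2-fold or more in opposite directions in the 2 lines with lenvatinib. Its log2 ratio of lenvatinib to parental was 1.21 in SNU-6624 (70 counts in the lenvatinib library, 30 in the parental) and -1.87 in SNU-6625 (5 and 20 counts). The difference, SNU-6625 minus SNU-6624, was -3.07 and was not tested.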

How the results depend on the processing

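For lenvatinib against parental, 9 of 36 genes were called; the count was 29 with the 4 libraries compared alone, 3 with no filter beyond 1 count, 22 by DESeq2, 14 by limma-voom and 0 to 29 with one library left out. For resistant against parental it was 0, but 8 by DESeq2 and 0 to 17 with one library left out. For resistant against lenvatinib it was 8, and 2 with the 4 libraries compared, 13 with library size alone, 2 with no filter, 18 by DESeq2 and 0 to 27 with one library left out. Where a library was left out, the lone sample of its group is assumed to vary like the other groups. Without the replicate block the counts were 9 (6 of them shared), 0 and 6 (5 shared). Line pairs the libraries across groups. The calls lost without the block were Aldh18a1, Atf5 and Pycr1 in the first comparison and Aldh18a1, Ddit3 and Pycr1 in the last.

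No called gene changed direction under any of the 16 alternatives run. Ddit3, Gpt2 and Phgdh (lenvatinib against parental) and Aldh1l2 and Gpt2 (resistant against lenvatinib) stayed called in all 10 alternatives other than leaving a library out. With library size alone, the number of genes higher in resistant than in lenvatinib SNU-6625 was 5, against 9. Over all tested genes 35.6% were then higher, against 47.5%. Over all genes, 985, 0 and 1061 were called in the 3 comparisons, against 3669, 1104 and 3569 by DESeq2, 1697, 0 and 1587 by limma-voom, 174, 0 and 324 with no filter and 7942, 0 and 234 with the 4 libraries compared. Depth limits Slc7a3, Fgf21 and Cbs, which had few counts.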
